A study of Mus musculus with 6 samples.

Results

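The genes examined were 10 members of a transcriptional circuit that sets mesenchymal against epithelial identity. They were chosen by gene symbol with earlier results of these data known, as were the gene lists used below. All 10 were found among the 24964 symbols of the deposited table. They comprise the zinc finger repressors Zeb1 and Zeb2, the other mesenchymal factors Snai1, Snai2, Twist1 and Twist2, and the epithelial counterparts Ovol2, Grhl2, Esrp1 and Cdh1. RNA was sequenced from mouse uterus around the embryo implantation sites on gestation day 13, in 3 libraries whose genotype is labelled control and 3 labelled myometrial PGR knockout, that is, lacking the progesterone receptor in the smooth muscle layer. The mouse strain, the allele, the driver of the deletion, any pooling of animals and whether each library came from its own animal are not stated in the labels, so a p-value here reflects only library-to-library spread, which may be technical. All values are the deposited FPKM, a unit that is by its name per kilobase of gene and per 1000000 fragments, so levels of different genes can be set side by side. The formula and the library size behind it are not stated.

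ZEB1 and ZEB2 bind E-boxes in promoters and recruit corepressors, and Cdh1, the gene of the cell adhesion protein E-cadherin, is a textbook target. ZEB factors and the microRNAs of the miR-200 family repress each other, and OVOL2, GRHL2 and the splicing regulator ESRP1 maintain the epithelial state. In the pregnant myometrium, progesterone acting through its receptor is known to keep ZEB levels high, and ZEB factors are known to repress the contraction genes Oxtr and Gja1.

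The mature miR-200 sequences are shown because their seeds (bases 2 to 8, in capitals) define the link to the ZEB genes. They come from RefSeq (GRCm38.p6), and all 5 family members were matched by name. The first pair shares the seed AACACUG and the other trio AAUACUG.
miR-141-3p: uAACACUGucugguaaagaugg
miR-200a-3p: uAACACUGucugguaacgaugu
miR-200b-3p: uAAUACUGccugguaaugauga
miR-200c-3p: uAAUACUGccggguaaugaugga
miR-429-3p: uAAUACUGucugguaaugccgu

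The 3′ untranslated regions of Zeb1 and Zeb2 each held 9 matches to the 7 bases complementary to these seeds, 4 to the first and 5 to the second. The regions searched were those of the transcript with the longest 3′ untranslated region in GENCODE M21 (GRCm38), 2401 bases for Zeb1 and 4941 for Zeb2. Only 3 of 21020 genes with such a region held 9 or more, and 25.8% held any. Among the other members, Snai2 had 2 matches, Snai1 and Grhl2 had 1 each, and Twist1, Twist2, Ovol2, Esrp1 and Cdh1 had 0. The 2 Zeb2 matches nearest the stop codon for each seed are printed on the RNA strand in DNA letters, with the match in capitals. A match is a stretch of letters and not a shown site of action.
Zeb2 chr2:44988346-44988375, minus strand: aaaattttgtaCAGTGTTaaggcctaaaaa
Zeb2 chr2:44987814-44987843, minus strand: ccatccttgtaCAGTGTTcagagggtaacg
Zeb2 chr2:44988162-44988191, minus strand: ctaccatacatCAGTATTttattattatta
Zeb2 chr2:44988097-44988126, minus strand: ctacagtgcatCAGTATTacgattcctcaa

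The microRNAs themselves were not measured by these libraries in a usable way. Mir200b, Mir200c and Mir429 were listed at 0 in all 6 libraries. Mir200a was listed at 0.302, 0.302 and 0.303 FPKM in control 3, labelled deficient 1 and labelled deficient 2 and at 0 in the others, and Mir141 at 0.377 FPKM in control 3 alone. By their symbols these are rows of hairpin genes and not of mature microRNAs. The library protocol is given only as a standard Illumina procedure, so how far it captured small RNA is not known.

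The E-box searched in promoters was CACCTG, on either strand, in windows of 300 bases around the start site. RefSeq windows were searched for Zeb2, Snai1, Twist1, Twist2 and Ovol2, 8 windows in all. Zeb1 was left out of this search, and Snai2, Grhl2, Esrp1 and Cdh1 had no window in it, so the count does not cover all members. Of the 8 windows, 1 held the motif, against 20.2% of 32851 windows of the same length. It lies at position -126 from the start site of Snai1 and is printed with its flanks, the E-box in capitals. No match says only that these letters are not in the window.
Snai1 chr2:167538057-167538086, plus strand: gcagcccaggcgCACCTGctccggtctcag

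The targeted gene did not separate the groups. Pgr was at 9.72, 8.33 and 12.08 FPKM in controls 1 to 3 and at 11.30, 12.41 and 7.73 FPKM in the other group, and the groups overlapped (limma log2 difference 0.05, SE 0.19, adjusted p = 0.91; exact two-sided permutation p = 0.9). Uterine layers were not separated and the deleted part of the gene is not known, so the second group is called the labelled deficient libraries, and every direction given rests on that label. The smooth muscle markers checked the tissue, and all 8 of them (Acta2, Actg2, Myh11, Cnn1, Smtn, Tagln, Lmod1 and Des) fell, with a summed level of between 8070 and 9848 FPKM in the controls and between 3261 and 3845 FPKM in the labelled deficient libraries. FPKM summed to between 357126 and 377091 per library. Replicate 3 of each group stood apart, with a correlation across genes on the log2 scale of between 0.971 and 0.983 with its 2 partners, which correlated with each other at 0.991 or 0.992. Of 12500 genes whose mean reached 1 FPKM, 417 passed a limma adjusted p of 0.05, 168 higher and 249 lower, and the median difference was 0.06. The split was 218 and 211 after rescaling every library to one sum, 125 and 379 with median-of-ratios scaling and 131 and 336 with quantile normalization. The count was 1275 without replicate 3 of both groups.

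Cdh1 rose and the ZEB genes showed no detectable difference. All 10 members passed the filter on low values and 1 of them, Cdh1, passed the limma threshold, against a background of 3.34% of all genes tested. The 4 epithelial members all had positive differences, with a median of 0.42 in log2(FPKM + 1), where 64.9% of all genes tested had a positive difference, and 3 of the 4 had an unadjusted limma p under 0.05, where 21.5% of all genes did in either direction. The 6 mesenchymal members had a median of -0.01, 0 passed, and 1, Snai2, had an unadjusted limma p under 0.05. In 4 of the 10 the groups did not overlap, 3 with the labelled deficient libraries above every control and 1 below, where 29.0% of all genes tested were separated in either way. Because the tissue is a mixture, more epithelial cells and more RNA per cell cannot be told apart in these libraries. For the same reason, the levels of Zeb1 and Zeb2 in the muscle layer alone were not measured.

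**Figure D1:**
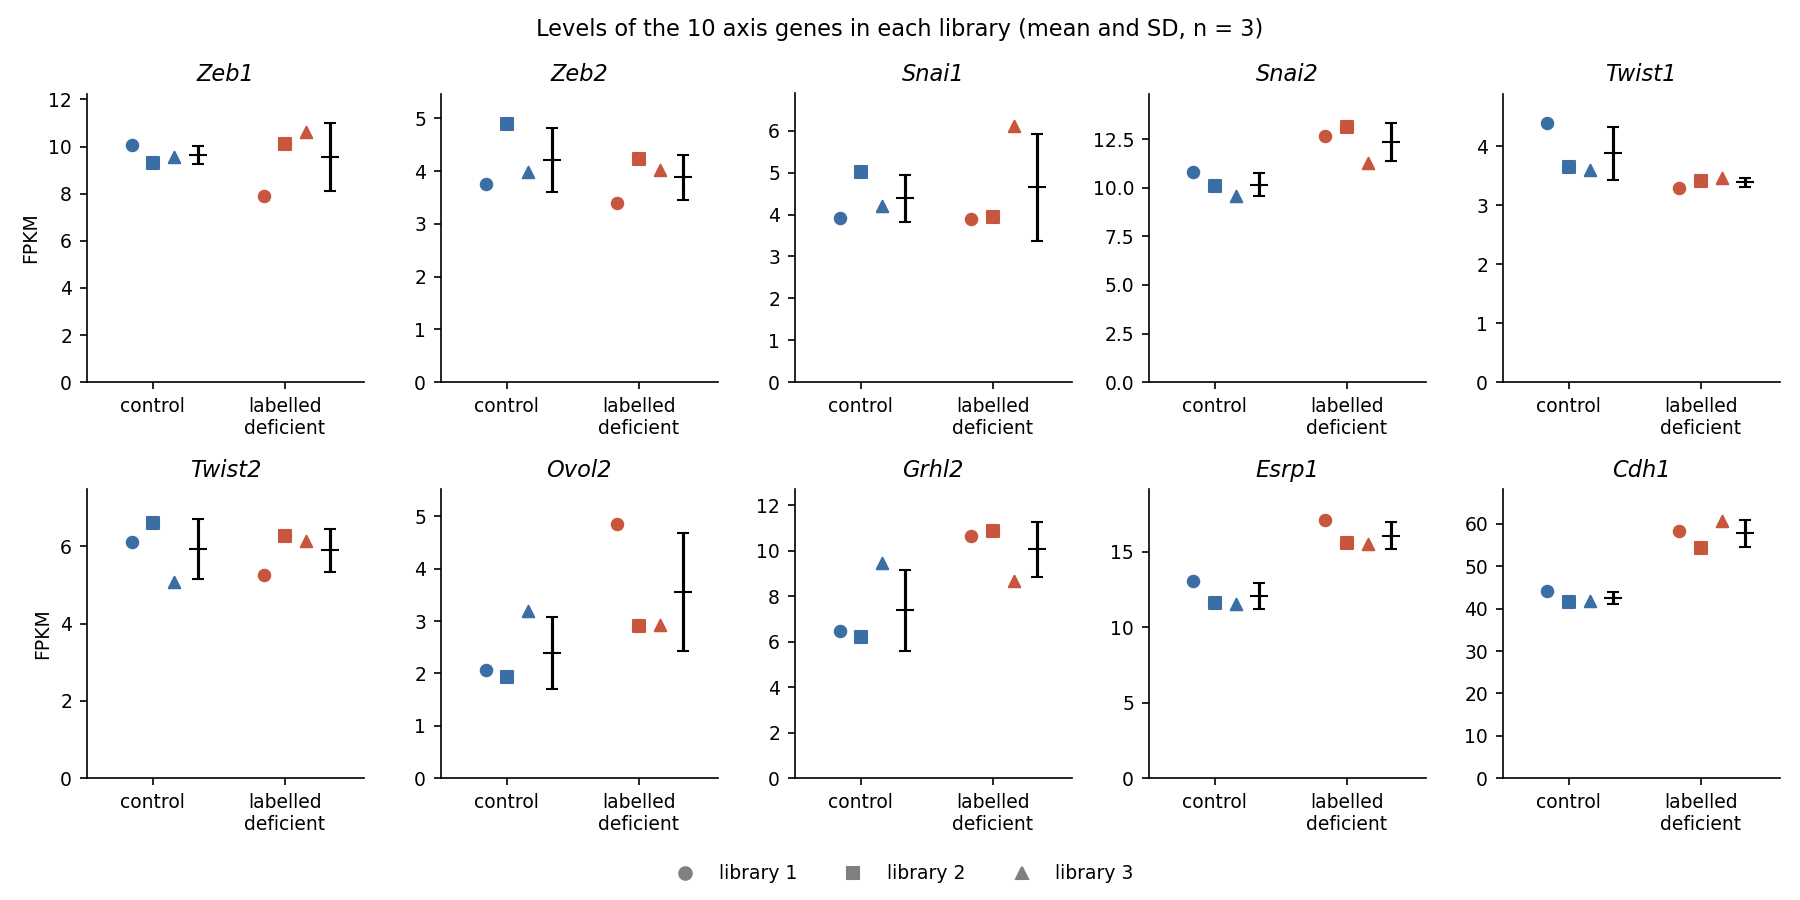
Level of each of the 10 genes in FPKM (vertical axes, each from 0) in the 3 control and 3 labelled deficient libraries, with one marker shape per library number and the mean and SD of 3 libraries as bars. Cdh1 and Esrp1 lie higher in every labelled deficient library, Zeb1 and Zeb2 overlap, and for Grhl2 and Ovol2 control 3 lies near or above a labelled deficient library.

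Zeb1 (chromosome 18, 5591860 to 5775467, plus strand, GRCm38), the ZEB repressor that progesterone is known to support in the myometrium, was at 10.07, 9.29 and 9.57 FPKM among controls, against 7.91, 10.10 and 10.62 FPKM under the deficient label. Labelled deficient 1 held the lowest level and labelled deficient 3 the highest of all 6, so the groups overlapped. The means were 9.64 ± 0.40 and 9.55 ± 1.44 FPKM (SD, n = 3 each). The log2 difference was -0.02 with a 95% confidence interval from -0.28 to 0.24 (limma adjusted p = 0.93). The sign turned positive after rescaling to one sum (0.02), without control 1 (0.0071) and without labelled deficient 1 (0.095).

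Zeb2 (chromosome 2, 44983632 to 45117395, minus strand), its paralogue, had lower levels, at 3.75, 4.90 and 3.98 FPKM for controls and 3.40, 4.22 and 4.02 FPKM under the deficient label. The groups overlapped, with the highest level in control 2 and the lowest in labelled deficient 1. Its log2 difference was -0.09 with a 95% confidence interval from -0.36 to 0.17 (limma adjusted p = 0.68), and without control 2 it was 0.00071. The antisense gene Zeb2os overlaps exons of Zeb2 and was at between 0.608 and 1.06 FPKM, and the labels do not state whether reads carry strand. Within a library, Zeb1 was at 2.33 ± 0.40 times the level of Zeb2 in the controls and 2.45 ± 0.17 times in the labelled deficient libraries (SD, n = 3 each).

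Among the other mesenchymal factors, Snai2 (Slug, a zinc finger repressor that binds E-boxes; chromosome 16, 14705852 to 14709385, plus strand) was the one with the largest difference. Its level was 10.80, 10.08 and 9.59 FPKM for controls and 12.63, 13.12 and 11.27 FPKM under the deficient label, with no overlap and a positive difference, the sign shared with the epithelial members. The log2 difference was 0.26 with a 95% confidence interval from 0.07 to 0.45, and it did not pass the test (limma adjusted p = 0.14). It passed with array weights (0.25, limma adjusted p = 0.046), where 14.2% of genes passed. Snai1 (Snail; chromosome 2, 167538195 to 167542814, plus strand), its paralogue, was at 3.93, 5.02 and 4.21 FPKM for controls and 3.89, 3.94 and 6.13 FPKM under the deficient label. Labelled deficient 3 alone was above every control, and the log2 difference of 0.05 (95% confidence interval -0.35 to 0.45, limma adjusted p = 0.88) was -0.13 without it.

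Twist1 (chromosome 12, 33957671 to 33959829, plus strand), a basic helix-loop-helix factor of mesoderm and neural crest, was at 4.40, 3.65 and 3.60 FPKM among controls, against 3.30, 3.41 and 3.46 FPKM under the deficient label. Every labelled deficient value lay below every control, but the gap between the groups was small beside the spread of the controls, and the difference did not pass (-0.15, 95% confidence interval -0.35 to 0.05, limma adjusted p = 0.35). Twist2 (chromosome 1, 91801461 to 91848028, plus strand), the related factor of dermal and other mesenchyme, was at 6.12, 6.60 and 5.07 FPKM and at 5.27, 6.27 and 6.15 FPKM, and the groups overlapped (-0.0037, 95% confidence interval -0.26 to 0.25, limma adjusted p = 0.99). The Twist2 difference was positive after rescaling to one sum (0.04).

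Cdh1 (chromosome 8, 106603351 to 106670246, plus strand), the gene of E-cadherin, was the member with the highest level. It was at 44.2, 41.5 and 41.9 FPKM among controls, against 58.3, 54.3 and 60.6 FPKM under the deficient label. The gap between the groups was wider than the range within either. The means were 42.5 ± 1.4 and 57.8 ± 3.2 FPKM (SD, n = 3 each), a level 1.36 times that of the controls, and the log2 difference was 0.43 (SE 0.07, 95% confidence interval 0.27 to 0.59, limma adjusted p = 0.028). Of the 168 genes that rose, 124 had a larger difference. The difference stayed between 0.40 and 0.47 when any 1 library was left out, but with 2 libraries in a group limma no longer called it without control 1 (adjusted p = 0.0996), control 2 (0.12), control 3 (0.058), labelled deficient 1 (0.12) or labelled deficient 2 (0.053), and it was called without labelled deficient 3 (0.046).

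Cdh3, the gene of P-cadherin, is the nearest upstream cadherin gene on the same strand of chromosome 8 (106510891 to 106557297). Its level was 4.37, 5.44 and 4.20 FPKM for controls and 3.59, 6.15 and 3.88 FPKM under the deficient label, with a log2 difference of -0.06 (95% confidence interval -0.50 to 0.39, limma adjusted p = 0.89). The difference between these 2 neighbours' changes was not resolved, since the ratio of Cdh1 to Cdh3 overlapped between the groups (exact two-sided permutation p = 0.3).

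Esrp1 (chromosome 4, 11331933 to 11386783, minus strand), which directs epithelial splice patterns, was at 13.1, 11.6 and 11.6 FPKM among controls, against 17.1, 15.6 and 15.5 FPKM under the deficient label. The groups did not overlap, and its level was 1.33 times that of the controls, with a log2 difference of 0.38 (SE 0.07, 95% confidence interval 0.20 to 0.56) that fell just outside the threshold (limma adjusted p = 0.051). It passed after rescaling to one sum (0.44, limma adjusted p = 0.046), where 3.43% of genes passed, among genes whose mean reached 5 FPKM (adjusted p = 0.045), where 4.14% passed, and with array weights (adjusted p = 0.022), where 14.2% passed. Cdh1 and Esrp1 kept close proportions in each library, with Cdh1 at 3.52 ± 0.13 times the level of Esrp1 in the controls and 3.60 ± 0.27 times in the labelled deficient libraries (SD, n = 3 each). Its paralogue Esrp2 rose, from 16.4, 17.8 and 14.2 FPKM to 23.1, 22.9 and 26.8 FPKM, by 0.56 on the log2 scale (SE 0.10, limma adjusted p = 0.042). Limma did not call Esrp2 without any 1 of the 6 libraries (adjusted p between 0.064 and 0.15) or with no filter on low values (0.068).

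Grhl2 (chromosome 15, 37233036 to 37363569, plus strand), a grainyhead-like activator of epithelial junction genes, was at 6.49, 6.20 and 9.45 FPKM among controls, against 10.64, 10.85 and 8.67 FPKM under the deficient label. Replicate 3 of each group fell on the side of the other group. The log2 difference of 0.42 (95% confidence interval 0.03 to 0.80) did not pass (limma adjusted p = 0.21), and without these 2 libraries it was 0.68 (limma adjusted p = 0.013), in a fit where 10.2% of genes passed. It also passed with array weights (0.58, limma adjusted p = 0.022), where 14.2% of genes passed. The antisense gene Gm16136 overlaps exons of Grhl2 on the opposite strand and was at 9.12, 7.42 and 9.79 FPKM for controls and 12.6, 14.0 and 9.04 FPKM under the deficient label, so control 3 was the highest control and labelled deficient 3 the lowest of its group for both genes. Without strand, reads from the stretch that the 2 genes share cannot be told apart, and the length of that stretch was not measured.

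Ovol2 (chromosome 2, 144305175 to 144332146, minus strand), a zinc finger repressor known to act on Zeb1, had the lowest level of the epithelial members. It was at 2.06, 1.93 and 3.19 FPKM among controls, against 4.85, 2.90 and 2.92 FPKM under the deficient label. Control 3 lay above 2 of the labelled deficient libraries, and 1 library, labelled deficient 1, held by far the highest level. The log2 difference was 0.42 (95% confidence interval -0.09 to 0.92, limma adjusted p = 0.31), and 0.22 without labelled deficient 1. Ovol1, the related repressor of skin, was at 1.88 ± 0.08 and 1.88 ± 0.51 FPKM (SD, n = 3 each). An estimated 151 to 379 reads lay behind the values of Ovol2, against 7015 to 10246 for Cdh1, from the low-value step of the table and annotated exon lengths.

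**Figure D2:**
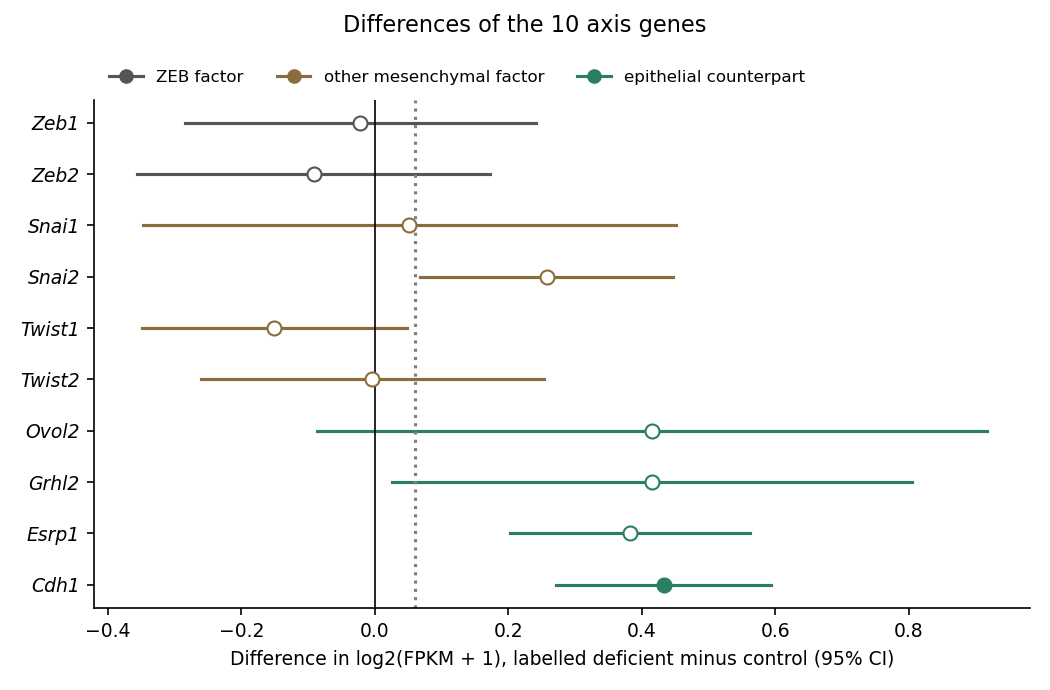
Difference in log2(FPKM + 1), labelled deficient minus control, with its 95% confidence interval (horizontal axis) for each gene, coloured by role. Filled points passed the limma threshold, the dotted line is the median of all genes tested at 0.06, and Cdh1 at 0.43 is the filled point, while the intervals of Zeb1 and Zeb2 span 0.

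In the controls the order of levels ran Cdh1, Esrp1, Snai2, Zeb1, Grhl2, Twist2, Snai1, Zeb2, Twist1 and Ovol2, from 42.5 down to 2.40 FPKM. Snai2 and Zeb1 overlapped in their ranges, as did Zeb1 and Grhl2, Grhl2 and Twist2, Snai1 and Zeb2, and Zeb2 and Twist1. In the labelled deficient libraries Grhl2 stood above Zeb1 and Ovol2 above Twist1, in each case with overlapping ranges. The uterus thus held transcripts of both sides of the circuit in every library, with E-cadherin at several times the level of any repressor.

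Ratios within a library do not depend on the scaling between libraries, and 16 were computed after the levels had been seen. Cdh1 was at 4.39, 4.47 and 4.38 times the level of Zeb1 in the controls and at 7.37, 5.38 and 5.71 times in the labelled deficient libraries. The controls lay within a narrow band and every labelled deficient library above it. The ratio of Cdh1 to Zeb2 was 11.8, 8.48 and 10.5 in the controls and 17.1, 12.9 and 15.1 in the labelled deficient libraries, again with no overlap. The ratio of Esrp1 to Zeb1 went from 1.25 ± 0.05 to 1.72 ± 0.38 and that of Snai2 to Twist1 from 2.63 ± 0.16 to 3.65 ± 0.33 (SD, n = 3 each), without overlap.

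The ratio of Cdh1 to Epcam, an epithelial surface adhesion gene, was 0.295, 0.316 and 0.341 in the controls and 0.345, 0.341 and 0.343 in the labelled deficient libraries. Control 3 lay just under the labelled deficient libraries, and the ratio spanned a narrow range over all 6. Each of these 5 ratios had an exact two-sided permutation p of 0.1, the smallest that 3 libraries against 3 allow, and an adjusted p of 0.32 over the 16 ratios (permutation). The ratios of Grhl2 to Zeb1, 0.766 ± 0.192 and 1.08 ± 0.26, and of Ovol2 to Zeb1, 0.249 ± 0.073 and 0.392 ± 0.192, overlapped between the groups (SD, n = 3 each). Cdh1 to Krt8, an epithelial keratin gene, was 0.333, 0.358 and 0.281 in the controls and 0.248, 0.247 and 0.417 in the labelled deficient libraries. This ratio overlapped (exact two-sided permutation p = 0.8) and spanned a wider range than Cdh1 to Epcam.

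**Figure D3:**
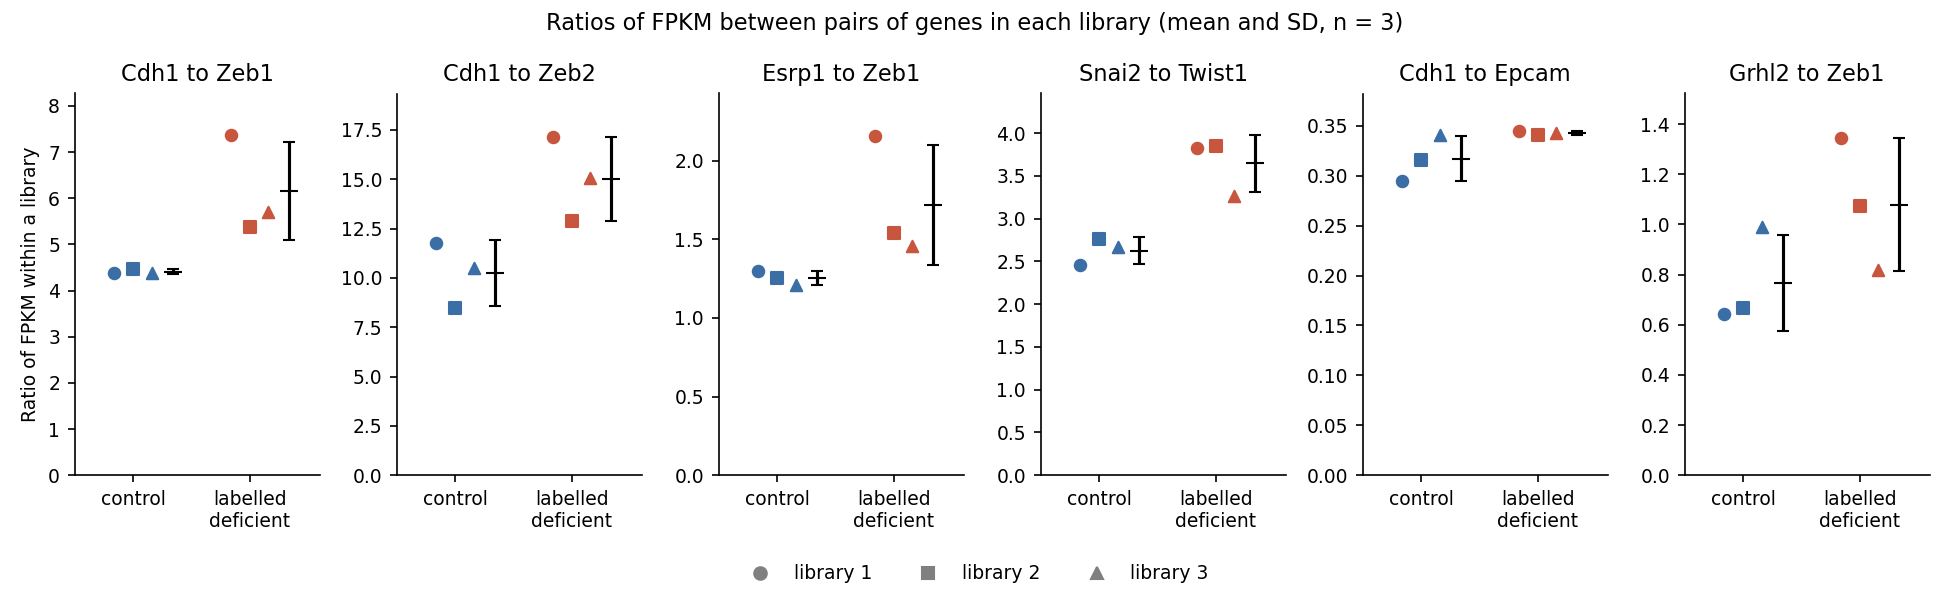
Ratio of the FPKM of the named pairs of genes within each library (vertical axes from 0, no unit), with one marker shape per library number and the mean and SD of 3 libraries as bars. Cdh1 to Zeb1 lies between 4.38 and 4.47 in the controls and between 5.38 and 7.37 in the labelled deficient libraries, while Cdh1 to Epcam spans only 0.295 to 0.345 over all 6. The ratio of Cdh1 to Krt8, not drawn, spans 0.247 to 0.417 over all 6.

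Of the 10 epithelial markers, 8 were tested and 1, Krt19, rose, where 1.34% of all genes tested rose. The summed level of the 10 markers overlapped between the groups, at 27190 to 38660 FPKM in the controls and 22880 to 37690 FPKM in the labelled deficient libraries. Most of it came from the secreted protein gene Prap1 (log2 difference -0.18, limma adjusted p = 0.73). The sum of the others, taken after the values were seen, lay between 589.3 and 654.9 FPKM in the controls and between 747.1 and 1011 FPKM in the labelled deficient libraries. In 3 of them, Krt19, Epcam and Elf3, every labelled deficient library lay above every control, where 20.8% of all genes tested did. Krt8, Krt18, Cldn4, Cldn7, Wnt7a and Foxa2 overlapped. Krt8, for example, was at 132.6, 116.1 and 149.0 FPKM for controls and 234.8, 219.9 and 145.5 FPKM under the deficient label. The part of epithelial cell number in the Cdh1 result was not tested.

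Markers of the placenta and yolk sac were close to 0. The 9 trophoblast markers summed to between 1.02 and 2.20 FPKM in the controls and between 0.402 and 1.36 FPKM in the labelled deficient libraries, with Hand1, Gcm1 and Synb listed at 0 in all 6. The 3 yolk sac markers summed to at most 1.15 FPKM. None of the 5 mesothelial markers passed with limma (0 had an unadjusted p under 0.05), and their sum was between 33.1 and 48.8 FPKM in the controls and between 31.9 and 42.1 FPKM in the labelled deficient libraries. By the same limma test, 0 of 6 endothelial and 0 of 4 leukocyte markers passed (0 and 0 with an unadjusted p under 0.05), the 3 mast cell markers all fell, and the 3 Schwann cell markers were too low to test.

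Markers of the stroma and decidua gave sums that did not overlap between the groups, although no single one passed. The 5 decidual markers summed to between 75.9 and 371.4 FPKM in the controls and between 15.9 and 39.0 FPKM in the labelled deficient libraries. Of the 3 tested, 0 passed with limma (2 with an unadjusted p under 0.05, where 21.5% of all genes tested had one). Most of the difference in the sum was in Prl8a2, a decidual prolactin-family hormone, at 154.7, 354.6 and 60.4 FPKM for controls and 5.44, 26.5 and 0.664 FPKM under the deficient label (log2 difference -4.50, limma adjusted p = 0.089). The markers did not share a sign. Hand2 also lay below every control and Prl3c1 overlapped. Wnt4 (means 0.645 and 0.959 FPKM) and Bmp2 (1.33 and 1.77 FPKM) lay above every control. The 5 stromal markers summed to between 3988 and 4284 FPKM in the controls and between 3515 and 3549 FPKM in the labelled deficient libraries. With limma 0 of them passed (3 with an unadjusted p under 0.05, beside the same 21.5% of all genes tested). Of the 5 stromal markers, Col1a1 and Col3a1 lay below every control and Pdgfra above. For both lists, 29.0% of all genes tested were separated in either way, and 20.8% lay above every control. The single markers given here were named after their values were seen, and their part in the levels of the mesenchymal members was not tested.

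Around the epithelial members, 2 of 23 E-cadherin partners, junction and keratin genes rose, where 1.34% of all genes tested rose, and 0 fell, with a median log2 difference of 0.29 beside 0.06 over all genes tested. Their differences were above 0 for 22 of the 23, where 64.9% of all genes tested were above 0, and in 8 every labelled deficient library lay above every control, as in 20.8% of all genes tested. Krt8, Krt18, Krt19, Epcam, Cldn4 and Cldn7 are also among the epithelial markers above, so the counts of these lists are not independent. Krt19, a keratin of simple epithelium, rose from 91.2, 72.0 and 72.3 FPKM to 184.8, 168.3 and 139.2 FPKM, by 1.05 on the log2 scale (SE 0.14, limma adjusted p = 0.018). Pkp3, a desmosomal plakophilin, rose from 7.81 ± 0.37 to 10.3 ± 0.4 FPKM (SD, n = 3 each), by 0.35 on the log2 scale (SE 0.06, limma adjusted p = 0.037).

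Limma did not call Krt19 without control 2 (adjusted p = 0.078), control 3 (0.053), labelled deficient 1 (0.067) or labelled deficient 2 (0.067). Pkp3 was called in 1 of the 6 fits that left out a library, the one without control 3, and its adjusted p was 0.075 under median-of-ratios scaling, 0.078 with quantile normalization and 0.056 with no filter on low values. Named after their values were seen, the catenin genes Ctnnb1 and Ctnnd1, whose proteins bind the tail of E-cadherin, had log2 differences of 0.16 and 0.23 (limma adjusted p = 0.25 and 0.11), and Epcam one of 0.32 (limma adjusted p = 0.12).

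Of 17 other epithelial regulators, 11 were tested and 1 rose (Esrp2), where 1.34% of all genes tested rose. The median of the list was 0.21, 0 fell and 10 did not pass. Elf3 and Foxa2 of this list are also among the epithelial markers. Elf3, an epithelial ETS factor named after its values were seen, was at 43.9, 36.6 and 42.1 FPKM for controls and 85.6, 96.8 and 59.0 FPKM under the deficient label (log2 difference 0.93, limma adjusted p = 0.053). Among the paralogues of members, Grhl1 was at 1.31 ± 0.06 and 1.63 ± 0.74 FPKM (SD, n = 3 each), Ovol3 at no more than 0.027 FPKM and Grhl3 at no more than 0.01 FPKM. Grhl2 thus had the highest level of the 3 grainyhead-like genes in every library. Ovol2 was at 1.10, 0.987 and 1.76 times the level of Ovol1 in the controls and at 2.52, 2.14 and 1.23 times in the labelled deficient libraries, and these ratios overlapped.

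Of 14 other mesenchymal regulators and markers, 12 were tested and 0 passed with limma. An unadjusted limma p under 0.05 was found in 7, where 21.5% of all genes tested had one. The list held differences of both signs around a median of 0.16. Cdh11, a cadherin of mesenchyme, was at 24.8, 20.2 and 20.1 FPKM for controls and 29.98, 30.5 and 38.6 FPKM under the deficient label (log2 difference 0.58, limma adjusted p = 0.072), with no overlap. Cdh11 passed after rescaling to one sum and with array weights (limma adjusted p = 0.0466 and 0.0465), where 3.43% and 14.2% of genes passed. Hand2, the stromal factor downstream of progesterone, was at 15.6, 14.7 and 13.8 FPKM and at 8.89, 9.45 and 12.6 FPKM (log2 difference -0.48, limma adjusted p = 0.11). Hand2 passed without labelled deficient 3 (-0.63, limma adjusted p = 0.020), where 4.21% of genes passed. It also passed without replicate 3 of both groups (limma adjusted p = 0.0155) and with array weights (limma adjusted p = 0.013), where 10.2% and 14.2% of genes passed. Cdh2, the gene of N-cadherin, which replaces E-cadherin in mesenchymal cells, was at 1.10 ± 0.15 and 0.984 ± 0.491 FPKM (SD, n = 3 each). Vim, the intermediate filament gene of mesenchyme, was at 374.0, 520.8 and 332.4 FPKM and at 241.2, 269.0 and 329.0 FPKM (log2 difference -0.53, limma adjusted p = 0.19). Cdh2 and Vim were named after their values were seen.

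**Figure D4:**
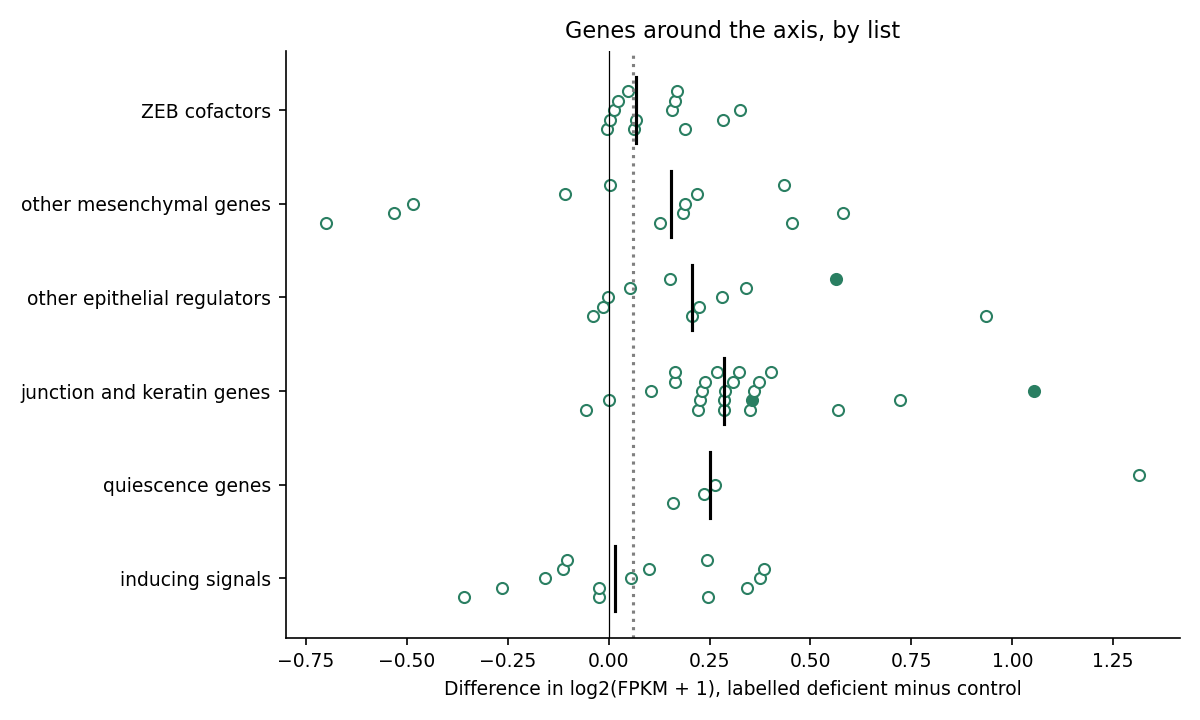
Difference in log2(FPKM + 1), labelled deficient minus control (horizontal axis), of each tested gene in 6 lists around the circuit, with the black bar at each list's median and the dotted line at the median of all genes tested. Filled points passed the limma threshold, and they are Esrp2 among the epithelial regulators and Krt19 and Pkp3 among the junction and keratin genes.

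Of 13 corepressors and cofactors of the ZEB proteins, 0 passed with limma and the median was 0.07. Their differences were above 0 for 12 of the 13, where 64.9% of all genes tested were above 0. In 6 of the 13 every labelled deficient library lay above every control, as in 20.8% of all genes tested. An unadjusted limma p under 0.05 was found in 3, where 21.5% of all genes tested had one. The smallest p belonged to Smad3, a TGF-beta signal transducer that binds ZEB proteins (11.3 ± 1.2 and 14.0 ± 0.5 FPKM, log2 difference 0.28, limma adjusted p = 0.15), and Chd4, a helicase of the NuRD complex (33.2 ± 2.1 and 38.0 ± 1.3 FPKM, 0.19, limma adjusted p = 0.19), each SD with n = 3. Of 15 inducing signals, 14 were tested, 0 passed with limma and the median was 0.02. An unadjusted limma p under 0.05 was found in 4, beside the same 21.5% of all genes tested. Here the smallest p belonged to Tgfbr3, a TGF-beta coreceptor (37.0 ± 3.3 and 28.6 ± 0.3 FPKM, -0.36, limma adjusted p = 0.070), and Bmpr1a, a BMP receptor (16.8 ± 0.4 and 20.1 ± 0.5 FPKM, 0.25, limma adjusted p = 0.075), each SD with n = 3. Both passed with array weights (limma adjusted p = 0.0265 for each), where 14.2% of genes passed.

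Of 9 genes of the miR-200 loci and of uterine quiescence, 4 were tested, 0 passed with limma and the median was 0.25. An unadjusted limma p under 0.05 was found in 2, where 21.5% of all genes tested had one. Oxtr, the oxytocin receptor, was at 10.6 ± 1.2 and 29.3 ± 10.5 FPKM (SD, n = 3 each; log2 difference 1.31, limma adjusted p = 0.062). Gja1, connexin 43, was at 40.2 ± 2.1 and 47.6 ± 3.1 FPKM (SD, n = 3 each; log2 difference 0.24, limma adjusted p = 0.15). In both genes every labelled deficient library lay above every control, as in 20.8% of all genes tested. Oxtr passed with array weights (limma adjusted p = 0.0077), where 14.2% of genes passed, and without labelled deficient 3 (1.64, limma adjusted p = 0.0069), where 4.21% passed. It also passed without replicate 3 of both groups (1.69, limma adjusted p = 0.0098), where 10.2% passed. Gja1 passed with array weights (limma adjusted p = 0.038), beside the same 14.2% of genes.

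Among 12055 tested genes with a standard symbol, the likeness of a profile was measured as the root mean square distance over the 6 libraries between log2(FPKM + 1) values centred on each gene's mean. The 3 genes most like Cdh1 were Sprtn, a protease of DNA repair (distance 0.0193), Vill, a villin-like actin-binding protein (0.0394), and Arrdc2, of the arrestin-domain family (0.0433), where the median distance was 0.228. Sprtn was at 6.85, 6.29 and 6.60 FPKM for controls and 9.52, 8.53 and 9.66 FPKM under the deficient label, a log2 difference of 0.43 beside 0.49 for Vill and 0.48 for Arrdc2, which follows from how they were picked. The 3 most like Zeb1 were Trio, a guanine nucleotide exchange factor (0.0394), Shroom3, a regulator of apical actin (0.0403), and Scarf2, a scavenger receptor family member (0.0449). Among the genes most like Zeb2 were Itsn1, an endocytic scaffold (0.0367), and Dock2, an exchange factor of leukocytes (0.0369). These likenesses rest on 6 libraries that share their scaling and are given as a description.

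**Figure D5:**
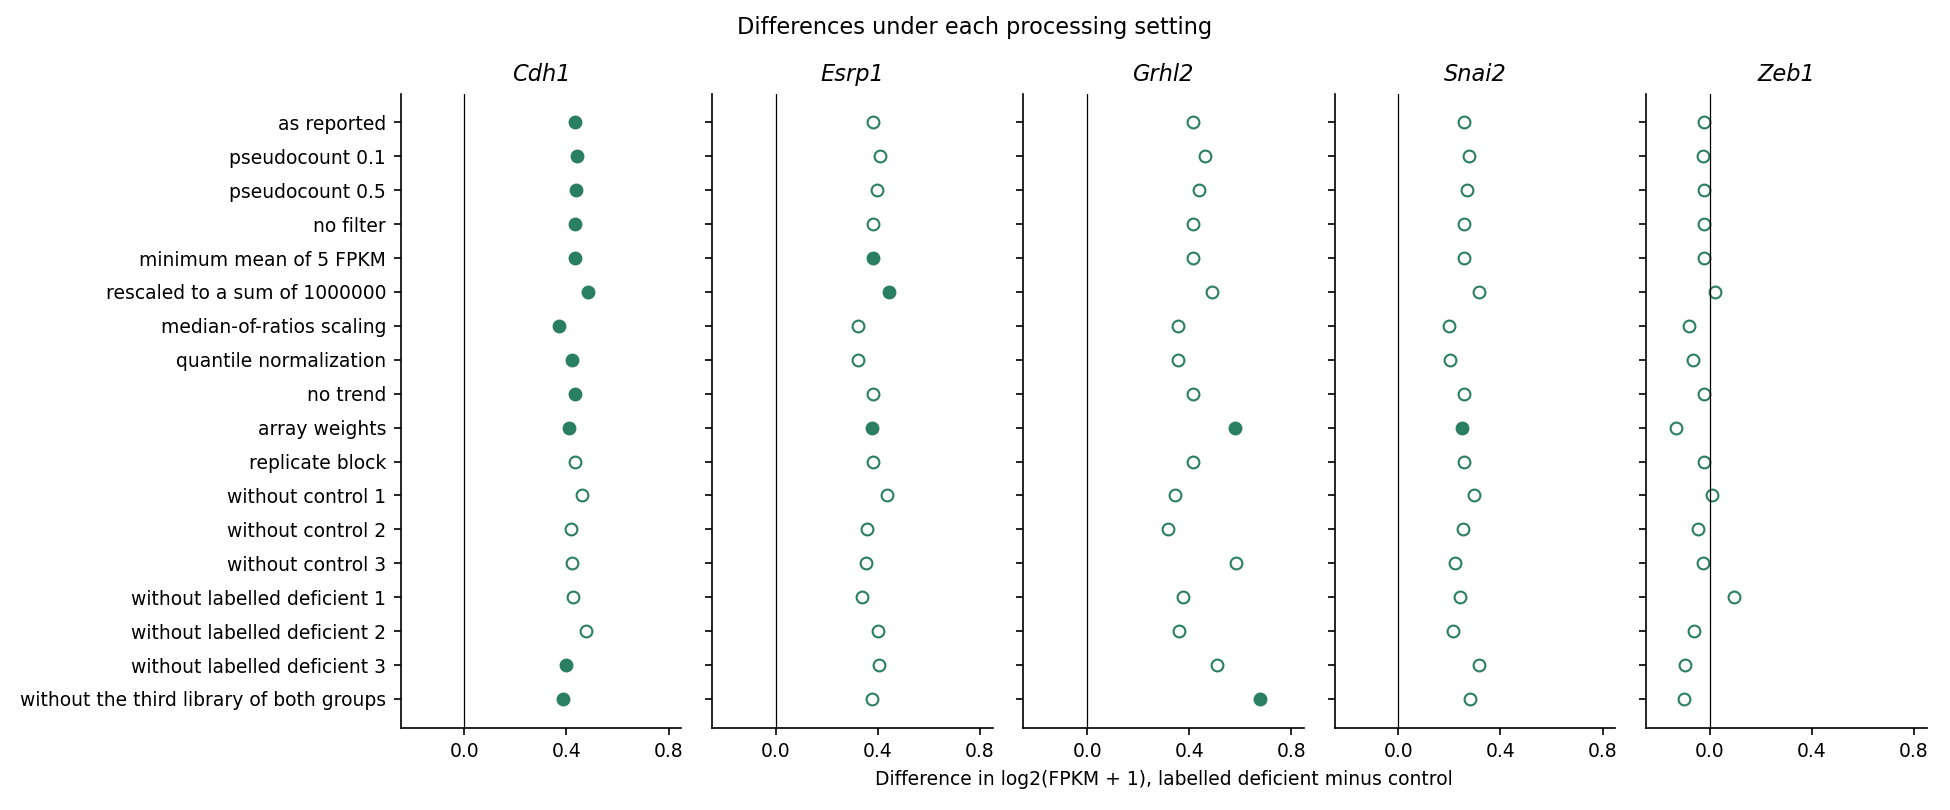
Difference in log2(FPKM + 1), labelled deficient minus control (horizontal axes), of 5 members as reported and under each other processing setting (rows), with filled points past the limma threshold. Cdh1 stays between 0.37 and 0.48 throughout but loses its call in 6 settings, Esrp1 gains one in 3, and Zeb1 stays near 0.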

How the data were processed

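RNA was extracted with TRIzol, per the labels' protocols. The authors deposited 1 table of FPKM values, 1 column per sample. The submitters' processing notes name build mm10 and, without role or order, STAR 2.7.0f, cutadapt 2.7 and DESeq2 1.24.0. No label states how reads were counted, the annotation, the strand or the FPKM formula. Each column matched a sample by name (0 unmatched). In low values, 1 read was worth the same in all columns, equal to a library of 36580000 or 36950000 reads. This may be 1 common size, so single depths are unknown, and read estimates cover counting steps only.

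Genes whose mean reached 1 FPKM were fitted with limma 3.58.1 in R 4.3.3 on log2(FPKM + 1), with an intensity trend and no covariate, as labelled deficient minus control. P-values were adjusted by Benjamini-Hochberg over all 12500 genes, with a threshold of 0.05. The log2(FPKM + 1) scale understates changes of low genes. The code was tested on simulated data. Single ratios were compared by exact two-sided permutation tests. Members and lists were chosen with earlier results of these data known. Some genes are in more than 1 list. Named genes were the members, Pgr, each list's called genes or else its 2 smallest p, and the 3 genes nearest in profile to Zeb1, Zeb2 and Cdh1, of which 1 is not reported here. Positions came from GENCODE M21. Alternatives were pseudocounts of 0.1 and 0.5, other filters, 3 other scalings, no trend, array weights, a block for the replicate number, each library left out and, added after seeing the data, replicate 3 of both groups left out.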

Additional observations from a re-analysis of the deposited data

How the results depend on the processing

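Of the 10 members, the differences of Cdh1, Esrp1, Grhl2, Ovol2, Snai2 and Twist1 kept their sign under every alternative run. The number of members called, 1 as reported, was 2 after rescaling to a sum of 1000000, with a minimum mean of 5 FPKM and without replicate 3 of both groups, 4 with array weights, and between 0 and 1 with 1 library left out. The number of genes called over the whole table, 417 as reported, was 1770 with array weights, 1275 without replicate 3 of both groups, and between 99 and 525 with 1 library left out. No sign of pairing by replicate number was seen, since deviations of same-numbered libraries correlated at -0.136, 0.0789 and -0.132. Among differently numbered libraries the correlation reached 0.200 (control 3 with labelled deficient 1). With 3 libraries a group, these values cannot exclude a pairing. With the replicate block, 143 genes and 0 members were called, and the adjusted p of Cdh1 was 0.088.

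Differences that turned sign were all of genes not called. Zeb1 was at 0.0205 after rescaling and 0.00713 and 0.095 without control 1 and labelled deficient 1 (range over all alternatives -0.131 to 0.095), and Zeb2 at 0.000708 without control 2 (range with 1 library left out -0.155 to 0.000708). Snai1 was at -0.0135 with quantile normalization, -0.0381 with array weights, -0.148 without replicate 3 of both groups, and -0.01 and -0.127 without control 1 and labelled deficient 3, and reached 0.145 without labelled deficient 1. Twist2 was at 0.0394 after rescaling and at 0.0191, 0.0661 and 0.0634 without control 1, control 2 and labelled deficient 1, and at -0.124 without replicate 3 of both groups, where Zeb1 was at -0.101 and Pgr at 0.361. Pgr was at -0.012 and -0.00541 with median-of-ratios and quantile scaling, and between -0.0777 and 0.232 with 1 library left out. Trio was at 0.0153 and Dock2 at 0.000343 after rescaling, and Scarf2 at -0.0161 and -0.000675 with median-of-ratios and quantile scaling, -0.0791 with array weights and -0.0353 without replicate 3 of both groups. With 1 library left out, Trio lay between -0.0904 and 0.0619, Shroom3 between -0.106 and 0.0406, Scarf2 between -0.0256 and 0.181 and Dock2 between -0.0902 and 0.0344. The cause was not tested. Zeb2, Snai1, Twist1 and Ovol2 have no value at a minimum mean of 5 FPKM.

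With 3 libraries a group, the 95% interval of Zeb1 spans 0.26 to either side of its difference, and a call asks for more than that, since Esrp1 at 0.383 with an SE of 0.07 was not called.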
